A study of Mus musculus with 2 samples.

Results

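The Src and Tec families are cytoplasmic tyrosine kinases that pass signals from cell surface receptors into lymphoid and myeloid cells. The kinases examined were the Src family members *Src*, *Fyn*, *Yes1*, *Lck*, *Fgr*, *Blk* and *Lyn* and the Tec family members *Btk* and *Tec*. They were picked by name rather than by a threshold on their values, with earlier results of these data known, and make up 9 of the 20250 protein-coding genes in the deposited transcript values, with 19 of the 26968 protein-coding RefSeq transcripts. Total RNA was sequenced from 2 cell types, with 1 library each. The pre-pro-B cells were *Ebf1* null and came from the fetal liver of females, and the pro-B cells were *Rag2* null and came from the bone marrow of adult males. Both cell types have the C57BL/6 background and were grown on OP-9 stromal cells, a mouse line that supports B cell growth, with Il-7 at 5 ng/mL. The pre-pro-B cells also received Scf and Flt3l, each at 10 ng/mL. *Ebf1* null cells lack a transcription factor needed for B lineage specification, and *Rag2* null cells cannot recombine their antigen receptor genes and so stop at the pro-B stage. Genotype, sex, age, tissue of origin and cytokines all differ together with the stage, so their parts in any difference cannot be told apart, and with 1 library per cell type no difference has a replicate check and none was tested. Lower RNA per cell and fewer cells with the RNA cannot be told apart either.

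In Src family kinases, a lipid-modified amino terminus ties the protein to the membrane, SH3 and SH2 domains bind partners, and a tyrosine in the carboxy-terminal tail shuts the enzyme off when Csk phosphorylates it. The phosphatase CD45, encoded by *Ptprc*, removes that phosphate. At the pre-B cell receptor, Blk, Lyn and Fyn phosphorylate the tails of CD79a and CD79b, Syk is then recruited, and Btk activates phospholipase C gamma together with the adaptor Blnk. Lck is best known as the kinase of the T cell receptor, and Fgr as a kinase of myeloid cells.

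Expression was given as FPKM, fragments per kilobase of transcript relative to library depth, which can be compared between genes because it is per length. Each transcript estimate came with the lower and upper limit of Cuffdiff's 95% interval, and values of a gene are sums over its transcripts. The labels state a depth of about 90000000 reads of 97 bp per library. Genes were called higher or lower past 2-fold on the log2(FPKM + 1) scale among the 10528 genes with 1 FPKM or more in either library. As a check of the labels, all 12 of the B lineage markers examined were higher by 2-fold or more in the pro-B library. Of 6 progenitor markers, 5 were lower by 2-fold or more there. The shares over all genes measured were 12.2% higher and 19.1% lower. The 12 include *Ebf1*, the gene targeted in the pre-pro-B cells. *Ebf1* was not at 0 in the library from *Ebf1* null cells, with an FPKM of 64.0 against 273 in the pro-B library, and *Rag2* had an FPKM of 22.9 in the library from *Rag2* null cells against 34.5. These values cover the whole transcript and so do not show the deleted part of either gene.

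Of the 9 kinases, 8 reached an FPKM of 1 in a library, and *Src* did not. In pro-B cells 1 of the 8, *Blk*, was higher by 2-fold or more, and 4, *Lck*, *Fgr*, *Tec* and *Lyn*, were lower by 2-fold or more. *Fyn*, *Btk* and *Yes1* lay within 2-fold. For *Yes1* this rests on the pseudocount of 1, since its FPKM was 9.05-fold lower without it. Across all genes measured, 12.2% were higher and 19.1% were lower by the same count. The median log2 change of the 8 kinases was -1.06, against -0.14 over all genes. Cuffdiff's intervals were wide, and only for 1 of the 14 kinase transcripts with 1 FPKM or more in either library, that of *Fgr*, did the intervals of the libraries not overlap. Among all such transcripts, 4.4% had intervals without overlap, 3.01% with the lower and 1.4% with the higher value in the pro-B library.

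**Figure D1:**
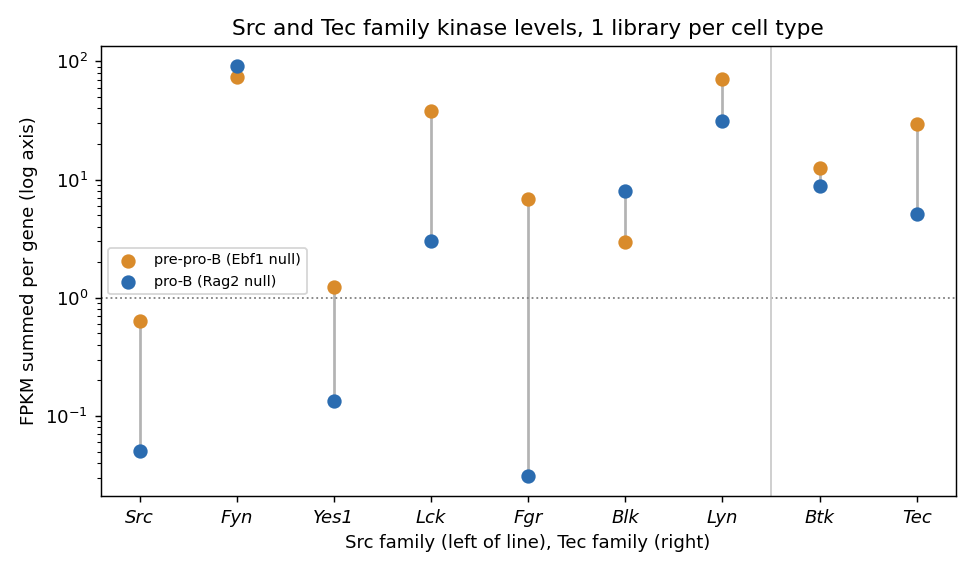
FPKM summed per gene on a log axis for the 7 Src family kinases (left) and the 2 Tec family kinases (right), with 1 point per library, a grey line joining the libraries and a dotted line at an FPKM of 1. *Fyn* and *Lyn* are the highest in both libraries, *Blk* and *Fyn* are the only genes whose pro-B point is above the pre-pro-B point, and *Fgr* spans the longest distance, from 6.90 to 0.0312.

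In pre-pro-B cells the order of the levels was *Fyn* (FPKM 73.3), *Lyn* (71.5), *Lck* (37.98), *Tec* (29.6), *Btk* (12.6), *Fgr* (6.90), *Blk* (2.97), *Yes1* (1.22) and *Src* (0.632). In pro-B cells it was *Fyn* (90.7), *Lyn* (31.6), *Btk* (8.85), *Blk* (7.95), *Tec* (5.09), *Lck* (2.996), *Yes1* (0.135), *Src* (0.0510) and *Fgr* (0.0312). *Fyn* and *Lyn* thus led in both cell types, while *Lck* moved from the third place to the sixth and *Blk* from the seventh to the fourth. For each of the 8 neighbouring pairs in either order, the intervals of the most abundant transcripts overlapped, so these estimates do not settle the order of neighbours. The overlap concerns 1 transcript per gene rather than the sums, and does not show that levels were equal. Summed over the 7 Src family genes, the FPKM was 195 in the pre-pro-B library and 133 in the pro-B library. *Fyn* and *Lyn* together held 74.5% of that sum in the pre-pro-B library and 91.6% in the pro-B library. *Lck* held 19.5% and 2.25%, in the same order. Among all protein-coding genes, *Fyn* lay at percentile 96.0 in the pre-pro-B library and 96.6 in the pro-B library, and *Lyn* at 95.9 and 87.9.

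**Figure D2:**
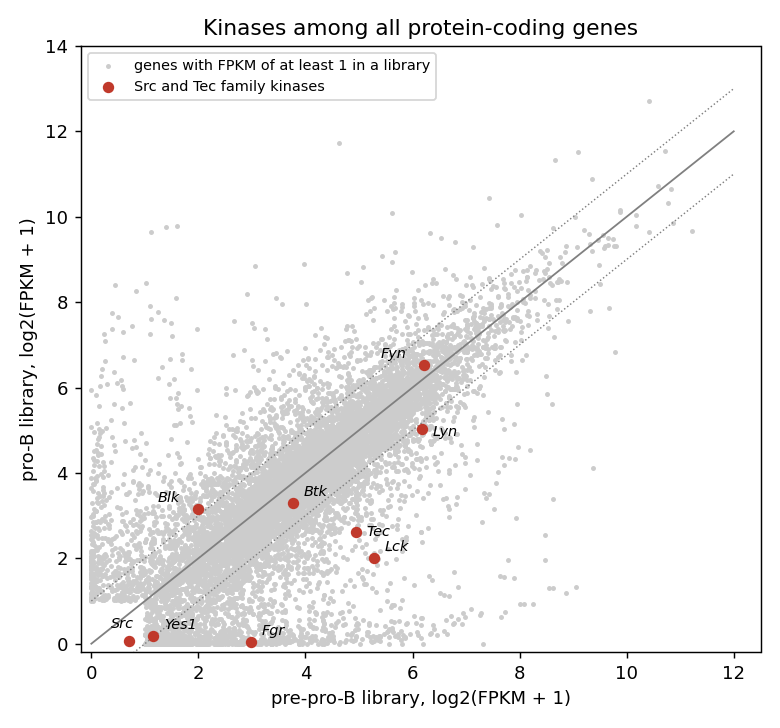
Each grey point is a protein-coding gene with 1 FPKM or more in either library, placed by log2(FPKM + 1) in the pre-pro-B library (x axis) and in the pro-B library (y axis), and the kinases are red. The solid line marks equal levels and the dotted lines a 2-fold difference. *Lck*, *Tec*, *Fgr* and *Lyn* lie below the lower dotted line, *Blk* above the upper, and *Src* is drawn although it did not reach an FPKM of 1.

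*Fyn* (chromosome 10 of mm9, 39088661 to 39285187, plus strand) encodes a Src family kinase expressed in many tissues and was the most abundant kinase of the set in both libraries. Its transcripts summed to 73.3 FPKM in the pre-pro-B library and 90.7 FPKM in the pro-B library, 1.24-fold higher and a log2 change of 0.30. The known splice forms of *Fyn* differ by mutually exclusive exons, the exon of FynB, the form of the brain, and that of FynT, the form of T cells and other blood cells. In the gene annotation on mm9 the coding sequence holding the first exon is 1614 bases long and that holding the second is 1605. The deposited transcripts NM_001122893 and NM_008054 differ by the same 9 bases, and were assigned to these exons by length alone. The exons are shown because they separate the forms on which the *Fyn* level rests, with the alternative exon in capitals between 15 bases of the shared neighbouring exons on each side. The first lies at chr10:39249243-39249407 and the second at chr10:39249725-39249880, both on the plus strand.
Fyn exon of the longer form: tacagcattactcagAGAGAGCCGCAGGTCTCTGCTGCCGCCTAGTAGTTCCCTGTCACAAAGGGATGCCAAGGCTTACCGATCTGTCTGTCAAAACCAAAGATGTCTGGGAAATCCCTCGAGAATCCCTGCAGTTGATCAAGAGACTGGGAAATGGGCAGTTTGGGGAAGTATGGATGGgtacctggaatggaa
Fyn exon of the shorter form: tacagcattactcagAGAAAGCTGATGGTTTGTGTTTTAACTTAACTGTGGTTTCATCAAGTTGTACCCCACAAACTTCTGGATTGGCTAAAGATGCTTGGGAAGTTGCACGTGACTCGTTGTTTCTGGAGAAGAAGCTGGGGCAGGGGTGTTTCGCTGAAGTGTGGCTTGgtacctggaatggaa

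NM_008054, the shorter form, had 63.3 FPKM in the pre-pro-B library (Cuffdiff's 95% interval 3.83 to 127) and 81.0 FPKM in the pro-B library (interval 5.62 to 162). NM_001122893, the longer form, had 9.16 (interval 0 to 36.2) and 9.37 (interval 0 to 39.0). The shorter form therefore held 86.4% of the *Fyn* FPKM in the pre-pro-B library and 89.3% in the pro-B library. The remaining transcript, NM_001122892, held 1.13% and 0.347%. All of these intervals overlapped between the libraries.

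*Lyn* (chromosome 4, 3605262 to 3740269, plus strand) encodes a kinase of B and myeloid cells that acts both in receptor activation and in its inhibition. Its transcripts summed to 71.5 FPKM in the pre-pro-B library and 31.6 FPKM in the pro-B library, 2.27-fold lower and a log2 change of -1.16. The deposited transcripts of *Lyn* differ by 63 bases.

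NM_001111096, the longer transcript, had 57.6 FPKM in the pre-pro-B library (interval 4.23 to 140) and 23.0 FPKM in the pro-B library (interval 0.503 to 57.0). NM_010747, the shorter, had 13.9 (interval 0 to 54.9) and 8.54 (interval 0 to 30.2). Both were lower in the pro-B library, with overlapping intervals. The longer transcript held 80.5% of the *Lyn* FPKM in the pre-pro-B library and 72.9% in the pro-B library.

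*Blk* (chromosome 14, 63991674 to 64036024, minus strand) encodes the Src family kinase most restricted to the B lineage. Its single transcript, NM_007549, had 2.97 FPKM in the pre-pro-B library (interval 0.0479 to 9.82) and 7.95 FPKM in the pro-B library (interval 0.144 to 23.6), 2.68-fold higher and a log2 change of 1.17. The interval of each library included the estimate of the other. About 645 fragments in the pre-pro-B library and 1568 in the pro-B library stood behind these values. *Blk* was the only kinase of the set past 2-fold in this direction, and its pro-B level stayed far below those of *Fyn* and *Lyn*. Of the B lineage markers, *Cd79a* and *Cd79b*, the receptor chains that Blk phosphorylates, had an FPKM of 0.200 and 1.81 in the pre-pro-B library and of 135 and 181 in the pro-B library.

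*Lck* (chromosome 4, 129225588 to 129250885, minus strand) showed the largest difference of the set on the log2(FPKM + 1) scale, and that of *Fgr* was larger without the pseudocount. Its transcripts summed to 37.98 FPKM in the pre-pro-B library and 2.996 FPKM in the pro-B library, 12.7-fold lower and a log2 change of -3.29. The mouse gene is known to be transcribed from a distal and a proximal promoter. By length alone, after the ends of annotated transcripts were moved to the end of the deposited locus or to the start of another annotated *Lck* transcript, NM_001162433 starts at the upstream site, position 129250885 of mm9, and NM_010693 and NM_001162432 start 15269 bases downstream, at position 129235616. NM_001162432 has a coding sequence of 1563 bases, against 1530 for the others. The 120 bases before each start, from RefSeq on the GRCm38.p6 build, where the starts are also 15269 bases apart, are shown because the deposited transcripts divide between them. They cover chr4:129573642-129573761 for the upstream start and chr4:129558373-129558492 for the downstream start, both read on the minus strand, and capitals mark matches to the E box CANNTG. In a wider window of 300 bases, each start had 1 such match, at position 23 for the upstream and -63 for the downstream start. The upstream match lies past the start and so outside the bases shown.
Lck upstream start: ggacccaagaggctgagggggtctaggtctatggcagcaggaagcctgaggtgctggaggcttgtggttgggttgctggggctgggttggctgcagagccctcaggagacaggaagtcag
Lck downstream start: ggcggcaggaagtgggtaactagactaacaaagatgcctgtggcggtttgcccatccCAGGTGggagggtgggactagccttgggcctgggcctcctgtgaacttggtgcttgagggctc

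NM_010693, from the downstream start, had 25.0 FPKM in the pre-pro-B library (interval 0.254 to 54.2) and 0.515 FPKM in the pro-B library (interval 0 to 2.41). NM_001162432, from the same start, had 6.26 (interval 0 to 22.2) and 2.48 (interval 0 to 6.55). NM_001162433, from the upstream start, had 6.72 (interval 0 to 22.1) and 5.67e-05, the latter worth 0.00956 of a fragment and possibly a failed estimate. All 3 were lower in the pro-B library, and the intervals overlapped for each, those of NM_001162433 only at 0, since its pro-B interval was given as 0 to 0. The leading transcript differed: NM_010693 held 65.8% of the *Lck* FPKM in the pre-pro-B library and 17.2% in the pro-B library, while NM_001162432 held 16.5% and 82.8%. The pro-B shares rest on about 500 fragments in all, against 7159 in the pre-pro-B library, and the intervals allow NM_010693 from 0% to 100% of the pro-B level.

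Genes used as markers of T and NK cells were examined beside *Lck*. Of 13 T cell markers, 8 reached an FPKM of 1, all 8 were lower by 2-fold or more in the pro-B library, and the summed FPKM was 236 in the pre-pro-B library and 4.41 in the pro-B library. *Cd2*, *Cd28*, *Tcf7* and *Cd3g* made up most of it, with pre-pro-B FPKM of 90.8, 48.8, 38.9 and 36.8. *Cd247*, *Thy1*, *Gata3* and *Cd4* had 8.83, 5.95, 2.64 and 1.15 in the pre-pro-B library. *Cd5*, *Cd3d*, *Cd8a*, *Bcl11b* and *Cd3e* lay between 0.239 and 0.646 there. The range over the list was 0.239 to 90.8 in the pre-pro-B library and 0 to 2.60 in the pro-B library, where 5 of the 13 were at 0. Of 7 NK cell markers, 6 reached an FPKM of 1 and all 6 were lower, with a sum of 421 in the pre-pro-B library, of which *Klrd1* gave 353, and of 6.28 in the pro-B library. Over all genes measured, 19.1% were lower by 2-fold or more in the pro-B library. The other NK cell markers in the pre-pro-B library were *Nkg7* at 31.3, *Klrb1c* at 18.3, *Eomes* at 9.96, *Prf1* at 5.82, *Ncr1* at 1.90 and *Gzmb* at 0. The range of this list was 0 to 353 there and 0 to 3.37 in the pro-B library. The part of such cells in the *Lck* level was not tested.

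**Figure D3:**
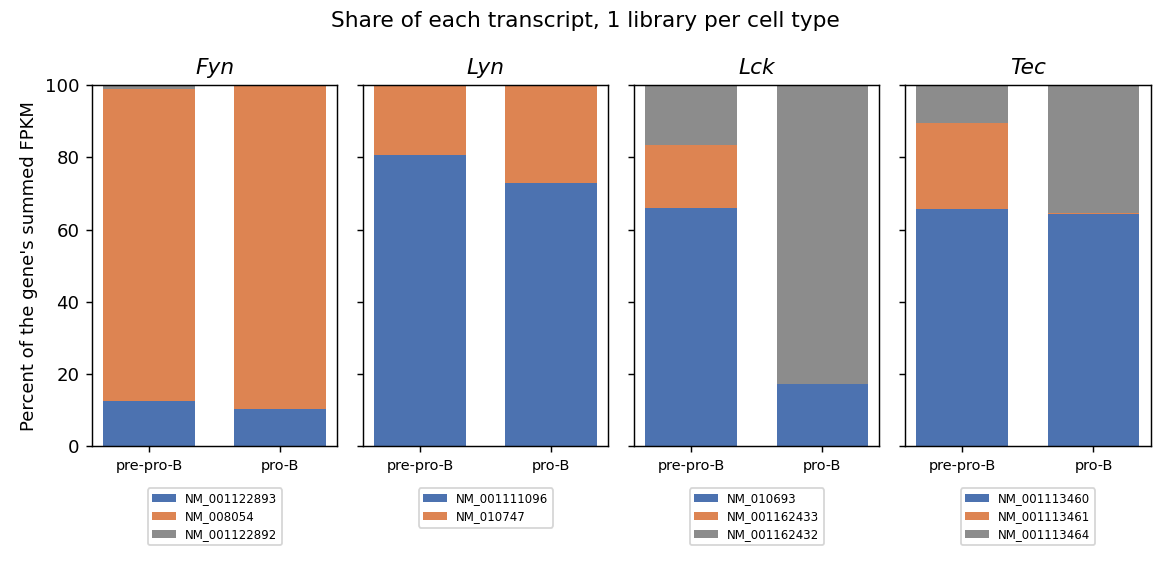
Share of the summed FPKM of *Fyn*, *Lyn*, *Lck* and *Tec* held by each RefSeq transcript in the pre-pro-B and the pro-B library, as stacked bars that add to 100%. *Fyn* and *Lyn* keep their leading transcript, whereas the leading *Lck* transcript is NM_010693 in the pre-pro-B library and NM_001162432 in the pro-B library, and NM_001113461 of *Tec* is at 23.7% in the first and 0.259% in the second.

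*Fgr* (chromosome 4, 132530010 to 132557825, plus strand), the kinase of granulocytes and monocytes, was the single kinase whose intervals did not overlap. Its transcript, NM_010208, had 6.90 FPKM in the pre-pro-B library (interval 0.213 to 18.7) and 0.0312 FPKM in the pro-B library (interval 0 to 0.130). The log2 change was -2.94 with the pseudocount of 1 and -7.79 without it, the latter a 221-fold lower FPKM. The pro-B value was worth 8.32 fragments (exact Poisson 95% interval 3.67 to 16.2, counting error only), against about 2027 in the pre-pro-B library. Myeloid markers were also higher in the pre-pro-B library. Of 15, 9 reached an FPKM of 1, 8 of these were lower by 2-fold or more in the pro-B library, and the sum was 943 in the pre-pro-B library and 16.1 in the pro-B library. *Tyrobp* and *Fcer1g*, which NK cells and progenitors also express, gave 463 and 395 of the former. *Mpo* had 35.7 in the pre-pro-B library, whereas *Elane*, *Ctsg* and *S100a9* were listed at 0 and *Csf1r* had 0.170, so the range of the list was 0 to 463 there and 0 to 6.72 in the pro-B library. Over all genes measured, 19.1% were lower by 2-fold or more in the pro-B library. The part of myeloid cells in the *Fgr* level was not tested.

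*Src* and *Yes1*, which like *Fyn* are expressed in many tissues, were the lowest of the set in the pre-pro-B library. *Yes1* (chromosome 5, 32913606 to 32989430, plus strand) had 1.22 FPKM in the pre-pro-B library (interval 0 to 3.29) and 0.135 FPKM in the pro-B library (interval 0 to 0.416), all of it from NM_001205132. The other transcripts, NM_009535 and NM_001205133, were listed at 0 in both libraries. The log2 change of *Yes1* was -0.97 with the pseudocount of 1, just inside 2-fold, and -3.18 without a pseudocount. *Src* (chromosome 2, 157244180 to 157297598, plus strand) summed to 0.632 FPKM in the pre-pro-B library and 0.0510 FPKM in the pro-B library. Stromal markers, which could show carry-over of OP-9 cells, had a summed FPKM over 13 genes of 26.5 in the pre-pro-B library and of 17.9 in the pro-B library. *Pdgfrb* (15.9 and 0.377) and *Thy1* (5.95 and 0), which is also on the T cell list, made up most of the former sum. Of the 8 stromal markers that reached 1 FPKM, these 2 were lower by 2-fold or more and 3 were higher. The 3 were *Fn1* (1.16 and 5.16), *Cxcl12* (0.618 and 2.92) and *Col1a2* (0.707 and 2.82). The median log2 change over the 8 was 0.83. The shares over all genes measured were 12.2% higher and 19.1% lower. *Col3a1* (0.242 and 1.13), *Sparc* (1.13 and 2.81) and *Vcam1* (0.146 and 1.03) were also higher in the pro-B library. At such low values the pseudocount of 1 kept them within 2-fold, and without it they were past 2-fold. *Col1a1* had 0.207 and 0.522, *Dcn* was listed at 0 in both, and the ranges were 0 to 15.9 and 0 to 5.16. Their part in these low kinase levels was not tested.

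The deposited *Src* transcripts differ by 18 bases. The annotation on mm9 has a coding exon of this length at chr2:157284579-157284596 on the plus strand, the exon known from the neuronal form of Src, and the transcripts were assigned by length alone. It is printed in capitals between 15 coding bases on each side because it allows the neuronal form to be told from the common one.
Src exon of the longer form: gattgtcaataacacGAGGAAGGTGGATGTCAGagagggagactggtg

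NM_001025395, the shorter transcript, had 0.622 FPKM in the pre-pro-B library (interval 0 to 1.70) and 0.0256 FPKM in the pro-B library (interval 0 to 0.109). NM_009271, the longer, had 0.00969 (interval 0 to 0.0262) and 0.0253 (interval 0 to 0.109). The shorter form held 98.5% of the *Src* FPKM in the pre-pro-B library. The pro-B values were worth 7.91 and 7.85 fragments, so the split there could not be read at this depth.

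**Figure D4:**
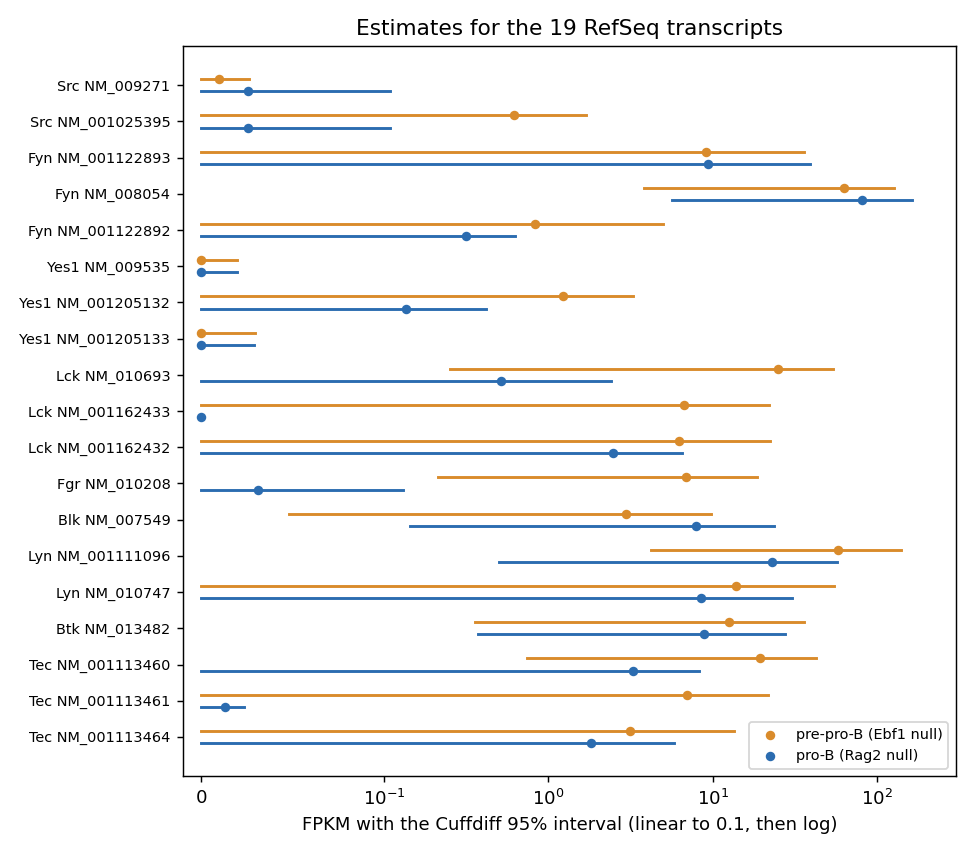
FPKM of the 19 transcripts in the pre-pro-B (orange) and pro-B (blue) library, as points with Cuffdiff's 95% interval as a line, on an axis that is linear up to 0.1 and logarithmic above. The intervals of the libraries overlap for each transcript of *Fyn*, *Lyn*, *Blk*, *Btk*, *Tec*, *Src* and *Yes1*, and those of *Fgr* do not. The pro-B interval of NM_001162433 of *Lck* is given as 0 to 0.

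The Tec family kinases of the set carry a PH domain that binds membrane lipids in place of the lipid-modified amino terminus. Of these, *Btk* is the kinase whose loss blocks B cell development in people. *Btk* (chromosome X, 131076875 to 131118109, minus strand) had 12.6 FPKM in the pre-pro-B library (interval 0.358 to 35.7) and 8.85 FPKM in the pro-B library (interval 0.374 to 27.6), a log2 change of -0.46. The interval of each library included the estimate of the other. *Tec* (chromosome 5, 73146957 to 73259722, minus strand), the kinase that acts beside Btk in B cells, summed to 29.6 FPKM in the pre-pro-B library and 5.09 FPKM in the pro-B library, 5.82-fold lower and a log2 change of -2.33. *Tec* was thus above *Btk* in the pre-pro-B library and below it in the pro-B library.

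The longest *Tec* transcripts differ by 66 bases, and the annotation on mm9 has a coding exon of 66 bases at chr5:73170660-73170725 on the minus strand that 1 of its coding forms lacks. NM_001113460 was taken as the form with the exon and NM_001113461 as the form lacking it by this length alone, and whether NM_001113464 holds the exon was not determined. The exon is shown in capitals between 15 coding bases on each side because it may separate the first pair.
Tec exon of the longer form: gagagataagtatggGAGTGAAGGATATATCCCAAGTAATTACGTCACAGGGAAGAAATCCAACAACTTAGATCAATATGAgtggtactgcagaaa

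NM_001113460, the longest transcript, had 19.5 FPKM in the pre-pro-B library (interval 0.737 to 42.7) and 3.27 FPKM in the pro-B library (interval 0 to 8.22). NM_001113461, shorter by 66 bases, had 7.01 (interval 0 to 21.6) and 0.0132 (interval 0 to 0.0235), the latter worth 2.73 fragments. NM_001113464, shorter by 87 bases, had 3.12 (interval 0 to 13.5) and 1.81 (interval 0 to 5.80). All 3 were lower in the pro-B library, with overlapping intervals. The longest form held 65.8% of the *Tec* FPKM in the pre-pro-B library and 64.3% in the pro-B library.

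Genes that act with these kinases were examined as lists, of which 43 of 48 genes reached an FPKM of 1 in a library. Among the 43, 7 were higher by 2-fold or more in the pro-B library and 25 were lower by 2-fold or more. Across all genes measured, 12.2% were higher and 19.1% were lower. The median log2 change of the 43 was -1.27, against -0.14 over all genes. The 25 include *Ptprc*, whose pro-B estimate may have failed. Of the other Src-like and Tec kinases, *Txk*, a Tec kinase of T and NK cells, had an FPKM of 18.8 in the pre-pro-B library and was listed at 0 in the pro-B library. *Frk*, *Ptk6*, *Srms* and *Bmx* stayed below an FPKM of 1 in both.

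The 14 inhibitory regulators all reached an FPKM of 1, and 10 were lower by 2-fold or more in the pro-B library, none was higher, and the median log2 change was -2.40. Across all genes measured, 19.1% were lower and 12.2% were higher. *Csk*, which phosphorylates the inhibitory tail of Src family kinases, had 43.8 FPKM in the pre-pro-B library (interval 1.56 to 109) and 44.0 FPKM in the pro-B library (interval 1.55 to 109). *Pag1*, the membrane adaptor that recruits Csk, had a summed FPKM of 33.4 and 3.34. Its transcript NM_001195031 had 25.5 and 3.34. The other, NM_053182, had 7.92 and 0.000249, the latter with an interval given as 0 to 0 and possibly a failed estimate. The phosphatase gene *Ptpn22*, whose product works with Csk, had 24.0 and 3.80, and *Ptpn6*, which encodes Shp1, had 88.3 and 15.6. *Dok2* and *Dok3*, adaptors that dampen receptor signals, had 15.8 and 14.9 in the pre-pro-B library and 0.0998 and 0.112 in the pro-B library. *Inpp5d*, which encodes the lipid phosphatase Ship1, went the other way within 2-fold, with 45.3 and 82.8. Of the ubiquitin ligase genes, *Cbl* had 36.4 and 14.9, and *Cblb* had 20.6 and 5.82.

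Of the phosphatases that can remove the inhibitory phosphate, *Ptpra* and *Ptpre* were lower by 2-fold or more in the pro-B library. *Ptprc* was also lower by its listed values, which are in doubt. *Ptpra* had 78.3 FPKM in the pre-pro-B library and 37.0 FPKM in the pro-B library, and *Ptpre* had 81.3 and 1.82. *Ptprc*, which encodes CD45, summed to 269 FPKM in the pre-pro-B library and 0.917 FPKM in the pro-B library. Its transcript NM_011210 went from 164 (interval 0.647 to 422) to 7.45e-05, with an interval given as 0 to 0. The quantification status of these transcripts was listed as OK, but whether the near-0 pro-B values of *Ptprc* are a failed estimate could not be settled from these values, so they are not a measure of how much CD45 RNA the cells held.

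**Figure D5:**
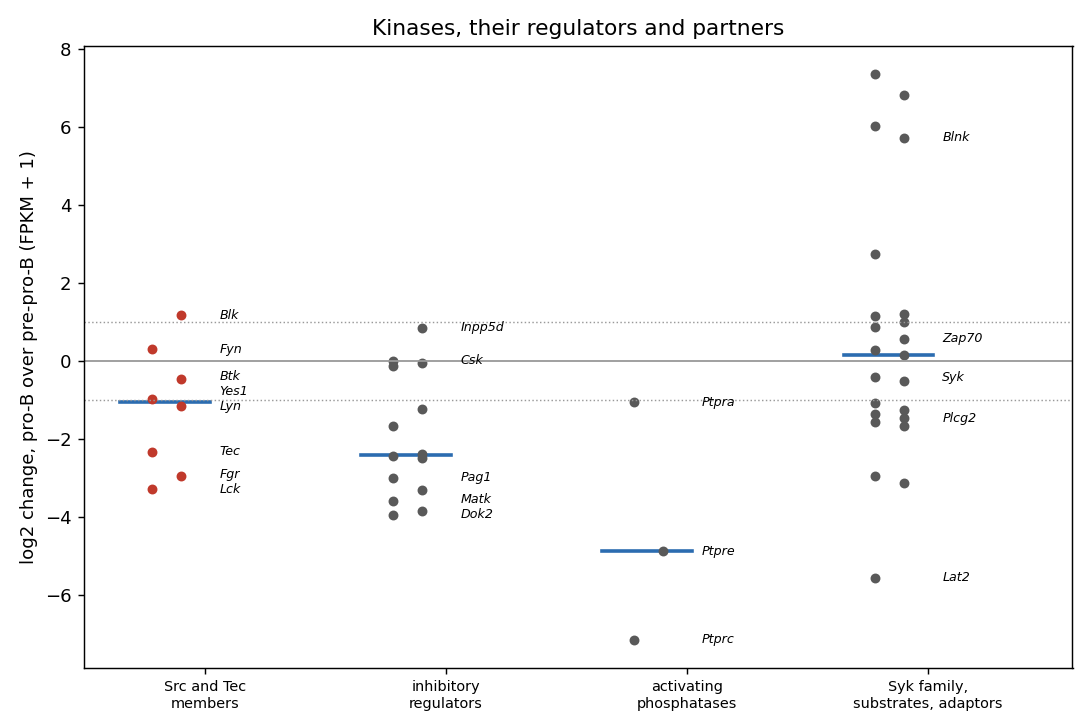
Log2 change on the log2(FPKM + 1) scale, pro-B over pre-pro-B, of the 8 kinases measured (red) and of genes of 3 lists (grey), with the median of each group as a blue bar and dotted lines at 2-fold. The medians are -1.06 for the kinases, -2.40 for the inhibitory regulators, -4.87 for the phosphatases and 0.15 for Syk family kinases, substrates and adaptors. The phosphatases include *Ptprc*, whose pro-B estimate may have failed.

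Among Syk family kinases, substrates and adaptors, 23 of 24 genes reached an FPKM of 1, 7 were higher by 2-fold or more in the pro-B library and 9 were lower by 2-fold or more. The shares over all genes measured were 12.2% higher and 19.1% lower. The genes higher in the pro-B library included *Cd79a*, *Cd79b* and *Blnk* (FPKM 1.83 and 147), the adaptor that links Syk to Btk, all of them also B lineage markers. *Syk* itself had 99.3 FPKM in the pre-pro-B library and 74.2 FPKM in the pro-B library, and *Zap70*, its relative in T cells, had 21.8 and 32.9, both within 2-fold. *Plcg2*, the phospholipase that Btk activates, was lower in the pro-B library (109 and 38.7), while *Plcg1* had 15.8 and 29.5. The adaptor genes *Lat2* and *Fyb* were lower too, *Lat2* at 70.7 and 0.523 and *Fyb* at 8.10 and 0.0413. The *Lat2* transcript NM_022964 had 47.2 and 0.522. Its transcript NM_020044 had 23.6 and 0.000216, the latter with an interval given as 0 to 0 and possibly a failed estimate. *Sh3bp5*, which encodes a protein that binds and inhibits Btk, had 0.850 and 11.3, whereas *Ibtk*, which encodes a further inhibitor of Btk, had 24.4 and 16.9.

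The genes whose pair of levels lay nearest to a kinase were named by the distance over log2(FPKM + 1) in the 2 libraries. For *Blk* these were *3300002I08Rik* (FPKM 2.99 and 8.04), *Emid1* (3.02 and 8.05) and *Tmem62* (2.98 and 8.17). For *Lck* they were *Bmp2k* (37.7 and 2.86), *Slc29a3* (40.2 and 2.95) and *Golm1* (35.1 and 3.01). A likeness over 2 libraries says no more than that the levels are close.

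Promoter windows of 300 bases, from before to just after the start of each gene, were found in RefSeq (GRCm38.p6) for 7 of the 9 genes, with 8 windows in all, and none for *Blk* and *Lyn*. The core of the Ebf1 motif, CCCNNGGG, was found on either strand in 3 of the 8 windows, those of *Src*, *Yes1* and *Fyn*, and in 13.7% of all 32851 windows. CANNTG was found in 5 of the 8 and in 72.3% of all, and GAGGAA, a core of Ets factors such as PU.1, in 4 of the 8 and in 28.3% of all. The Ebf1 match of *Fyn* lay at position -39 and those of *Src* and *Yes1* at -210 and -216. No matches overlapped each other, and they are matches of letters, not sites of binding. No annotated gene overlapped any of the 9 kinases on the same strand. On the opposite strand, annotated genes overlapped *Fyn* (3 genes), *Lyn* (4), *Yes1* (1) and *Btk* (1), and the libraries were strand-specific. Pseudogenes left aside, no stretch of 50 bases of their annotated transcripts occurred in another annotated protein-coding gene.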

How the data were processed

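RNA-seq was analysed from 1 library of *Ebf1* null pre-pro-B cells and 1 of *Rag2* null pro-B cells. The authors depleted ribosomal RNA, made strand-specific libraries, aligned trimmed single-end reads to mm9 with TopHat (version 1.5 in the submitters' processing notes) and estimated FPKM per RefSeq transcript with Cuffdiff 2.1.1, without scaling between libraries. The deposited FPKM carry limits of a 95% interval. A further deposited table of the authors' fold changes and p-values was not used. Cuffdiff divides reads between the transcripts of a gene, so shares of transcripts are less certain than sums.

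Names were matched for 26555 of 26968 protein-coding transcripts through a RefSeq table of GRCm38. FPKM were summed per gene with Python 3.11.15, numpy 2.4.6 and pandas 2.3.3, a pseudocount of 1 and a minimum FPKM of 1 in either library. Depth in fragments was approximated from FPKM, transcript length and the study's library totals. On this scale the FPKM account for 93.2% and 93.3% of aligned reads. Poisson intervals (scipy 1.17.1) cover counting error only. A level of 3 fragments, the limit that a count of 0 allows, would be an FPKM of 0.00741 and 0.00816 for the *Yes1* transcript NM_009535. Exons were read from an mm9 genome with GENCODE annotation. Figures used matplotlib 3.10.9. Kinases, lists and markers were chosen with earlier results of these data known. Genes named were the kinases, the listed genes, the targeted genes and the 3 genes nearest to the kinases with the largest log2 differences in each direction. The code for sums per gene and counts past 2-fold was run on simulated data with small noise and large changes in well expressed genes. That run checks the arithmetic only, not how reliable the counts are in these data. Alternatives were other pseudocounts, filters, TPM and median-ratio scaling, the most abundant transcript and the quantification status. Some listed genes and 1 sequence are not reported here.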

Additional observations from a re-analysis of the deposited data

How the results depend on the processing

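Under the alternatives tried, *Blk* was always the 1 kinase higher by 2-fold or more in the pro-B library, and between 3 and 5 kinases were lower by 2-fold or more. The count of 5 came with a pseudocount of 0.1, no pseudocount and TPM scaling, and 3 came when both libraries had to reach 1 FPKM, which leaves 6 kinases. Over all genes, the share lower was 22.1%, 20.9%, 22.9% and 11.3% at these settings, in the same order, against 19.1% in the main count. Across the settings, the share of all genes higher ranged from 6.34% without a filter to 14.3% without a pseudocount. The median log2 change over the kinases ranged from -1.86 without a pseudocount to -0.81. The log2 change of *Lyn* ranged from -1.29 to -1.02, of *Tec* from -2.55 to -2.21, of *Lck* from -4.10 to -3.18, of *Fgr* from -7.79 to -2.93 and of *Yes1* from -3.18 to -0.95. With 1 FPKM needed in both, the genes acting with the kinases gave 4 higher and 14 lower instead of 7 and 25, since 29 genes remain. Over all genes, this filter gave 918 higher and 998 lower of 8852, instead of 1284 and 2013 of 10528. Median-ratio scaling moved each log2 ratio by 0.14 before the pseudocount. The intervals allow wide ranges for the shares of single transcripts, for example 8.52% to 100% for NM_008054 of *Fyn* in the pre-pro-B library. No paired analysis was possible because each group has 1 library, and none could be left out.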
